A study of Macaca mulatta with 2 samples.

Results

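Calcium and potassium channels and pumps are described here as 34 genes chosen by symbol, of 24037 features in each matrix. They cover voltage-gated calcium channels, calcium release channels, calcium pumps and exchangers, store-operated entry, calmodulins and their kinases, mechanosensitive and TRP channels, and potassium channels. The symbol was given in the files for 32 of them, and the features of STIMATE and CAMK2D were named through a reference table of gene IDs. All 34 had at least 1 unique molecular identifier (UMI, a counted mRNA molecule) in each library.

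The study dissociated trabecular meshwork, the tissue that drains aqueous humour from the eye, from macaques (Macaca mulatta) and sequenced single cells with droplet 3′ libraries. There is 1 library labelled glaucoma and 1 labelled normal. How glaucoma arose, the number of animals or eyes pooled, and their age and sex are not given in the sources used here. With 1 library per group there is no replicate and no test. Animal, dissection, dissociation and disease cannot be told apart, and every interval below covers counting error only.

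Contractile cells shorten when cytosolic calcium rises. Calcium enters through voltage-gated, store-operated and stretch-activated channels or leaves the sarcoplasmic reticulum through IP3 and ryanodine receptors, and pumps then clear it. Potassium channels hold the membrane voltage that gates entry, and in the outflow pathway the tone of the ciliary muscle and of the meshwork itself bears on how easily fluid leaves the eye.

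After filtering, 8337 glaucoma cells and 5385 normal cells remained, with median depths of 2751 and 2702 UMIs. They fell into 25 clusters, named from marker genes that include none of the 34, and the 34 were also kept out of the clustering. In 9 named classes each library had at least 50 cells, and these were compared. The trabecular meshwork-like class held 2620 glaucoma cells and 963 normal cells, and the muscle-like class 699 and 1056. The libraries shared 17 cell barcodes, of which 11 were kept in both. Levels are in CPM, the UMIs of a gene per 1000000 UMIs of the class, and are compared across classes within a gene, not between genes.

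In 25 of the 34 the same class held the highest level in both libraries, and in 19 of these the lower of its values was above that of every other class in either library. Among 10463 named genes with at least 100 UMIs these shares were 59.8% and 40.5%; of the 28 members past that minimum, 21 and 16 met them. Muscle-like cells were the highest class for 10 of the 34, among them KCNMB1, with 32 UMIs in all kept cells. Pericyte-like cells were highest for 5, among them CACNA1C (53 UMIs) and CACNA1H (63 UMIs). Of the named genes with at least 100 UMIs, a minimum these sparse members missed, 6.36% were highest in muscle-like cells and 5.08% in pericyte-like cells.

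**Figure D1:**
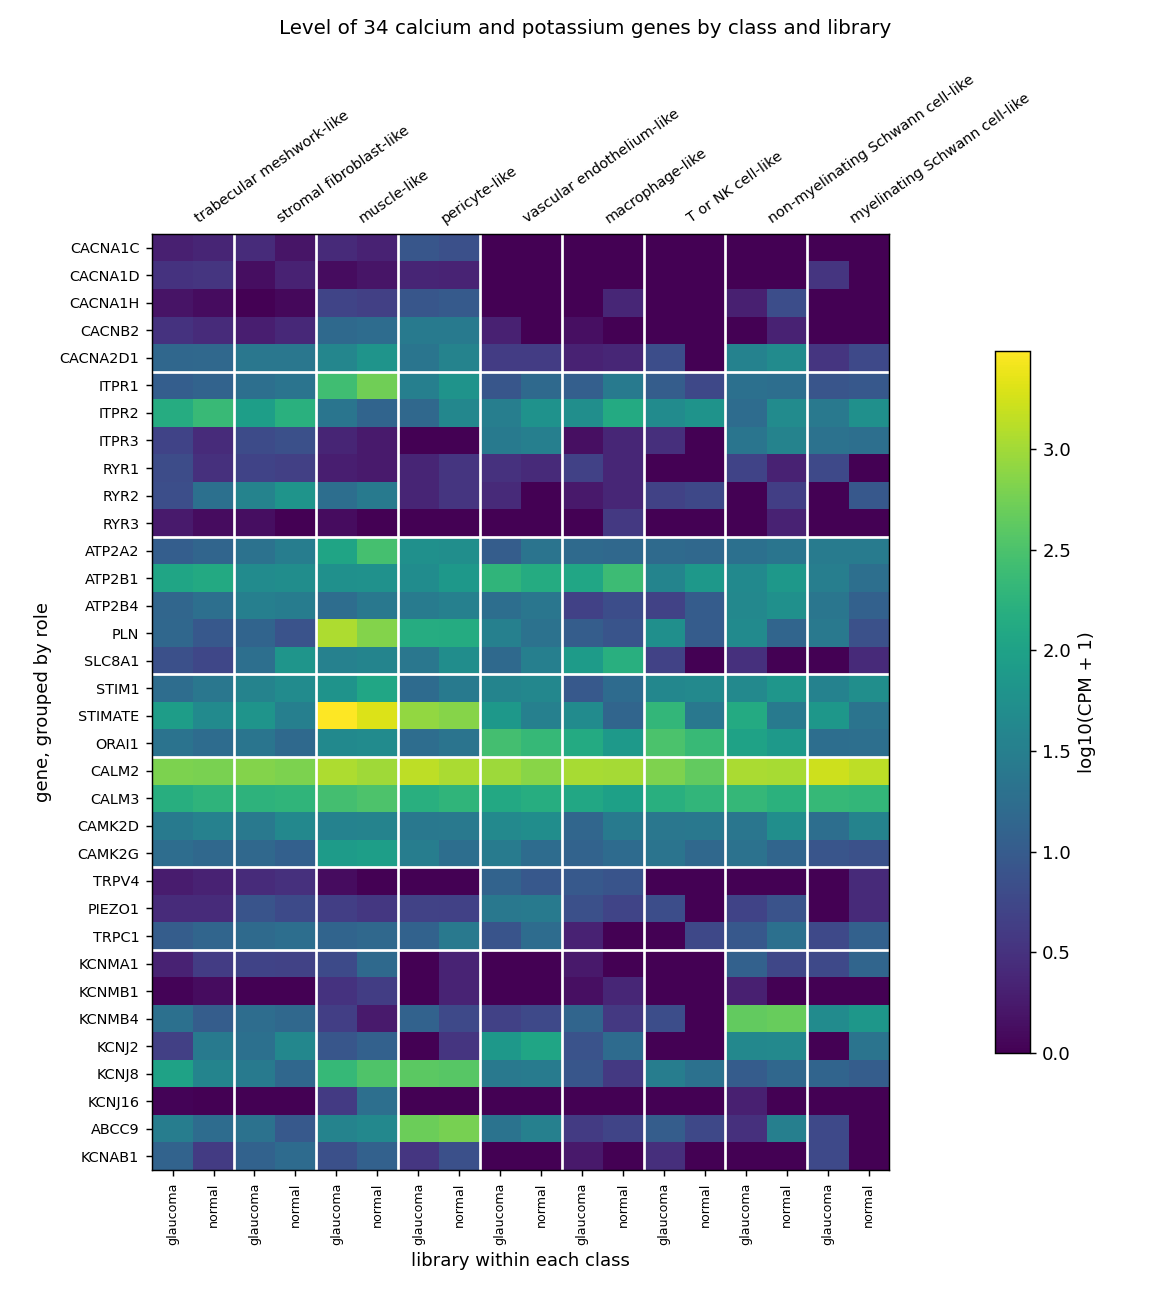
Level of each of the 34 genes (rows, grouped by role) in 9 classes, with the glaucoma column left of the normal column, as log10(CPM + 1). PLN and STIMATE were brightest in muscle-like cells, ABCC9 in pericyte-like cells and KCNMB4 in non-myelinating Schwann cell-like cells, in both libraries.

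The pores of voltage-gated calcium channels were sparse. CACNA1C, the pore of the L-type channel of smooth muscle, had 7.65 CPM in glaucoma pericyte-like cells and 6.14 CPM in normal ones, its highest class in both. CACNA1H, a T-type pore, had 7.65 and 8.59 CPM there, and the auxiliary subunit CACNB2 had 25.5 and 25.8 CPM. CACNA2D1, the auxiliary subunit that brings pores to the membrane, was highest in muscle-like cells at 39.1 CPM in glaucoma and 63.5 CPM in normal, which overlaps the non-myelinating Schwann cell-like values of 33.7 and 47.8 CPM. CACNA1D, another L-type pore, peaked in different classes in the 2 libraries.

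The IP3 receptors ITPR1 and ITPR2 had different highest classes. ITPR1, the IP3 receptor of smooth muscle, had 263 CPM in glaucoma muscle-like cells and 542 CPM in normal ones, against at most 60.1 CPM in any other class. ITPR2 was instead highest in trabecular meshwork-like cells, at 144 and 227 CPM, with stromal fibroblast-like cells at 89.3 and 161 CPM, so the classes were not apart across libraries. RYR2, the ryanodine receptor known from heart, was highest in stromal fibroblast-like cells at 35.7 CPM in glaucoma and 62.4 CPM in normal. ITPR3, RYR1 and RYR3 had no shared highest class.

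Of the 5 pumps, exchangers and regulators, ATP2A2 and PLN were highest in muscle-like cells. ATP2A2, the SERCA2 pump that returns calcium to the reticulum, had 106 CPM in glaucoma muscle-like cells and 282 CPM in normal ones. PLN, phospholamban, which restrains that pump, had 1125 and 698 CPM. The plasma membrane pump ATP2B4 was highest in non-myelinating Schwann cell-like cells (41.9 and 54.6 CPM), while ATP2B1 peaked in vascular endothelium-like cells in glaucoma (189 CPM) and in macrophage-like cells in normal (244 CPM). SLC8A1, the sodium-calcium exchanger, was highest by class in macrophage-like cells, at 81.9 CPM in glaucoma and 159 CPM in normal. Within the muscle-like class, the cluster led by RERGL, described below, had 104 CPM in glaucoma and 148 CPM in normal.

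For store-operated entry, STIM1, the sensor of reticulum calcium, was highest in muscle-like cells (60.8 and 115 CPM), without standing apart from Schwann cell-like cells. ORAI1, the pore that STIM1 opens, was highest in T or NK cell-like cells (316 and 222 CPM), close to vascular endothelium-like cells (277 and 217 CPM). STIMATE, a reticulum protein that promotes STIM1 activation, reached 3062 CPM in glaucoma muscle-like cells and 2007 CPM in normal ones. A limit attaches to that feature: in the RefSeq gene table its neighbour is MUSTN1, a gene of muscle and skeleton with no named feature here, and whether reads of MUSTN1 were counted under STIMATE was not tested. Of the calcium sensors, CALM2 was high in every class, from 630 to 1645 CPM in glaucoma and from 445 to 1385 CPM in normal. CALM3, which encodes the same protein, was highest in muscle-like cells at 275 CPM in glaucoma and 322 CPM in normal. The calmodulin kinase CAMK2G was also highest in muscle-like cells (79.8 and 87.7 CPM), while CAMK2D, its relative of heart muscle, had no shared highest class.

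Of the 3 mechanosensitive and TRP channels, 1 stood apart in a class. PIEZO1, a stretch-gated channel, had 24.0 CPM in glaucoma vascular endothelium-like cells and 25.8 CPM in normal ones, which was 45 of its 176 UMIs in the glaucoma library and 16 of 85 in the normal library. Lymphatic-type endothelial cells, outside the compared classes, had a similar level: 24.3 CPM in glaucoma (49 UMIs) and 22.4 CPM in normal (2 UMIs). TRPV4, a channel studied in the meshwork for pressure sensing, was also highest in vascular endothelium-like cells (11.8 CPM in glaucoma, 8.05 CPM in normal) but overlapped macrophage-like cells. TRPC1, a cation channel linked to stretch and store depletion, had no shared highest class.

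Among the potassium channel genes, ABCC9 and KCNJ8 were highest in pericyte-like cells. ABCC9, the sulfonylurea receptor of vascular ATP-sensitive potassium channels, had 505 CPM in glaucoma pericyte-like cells and 592 CPM in normal ones, 12.3 times the highest value in any other class. KCNJ8, the pore it partners, had 405 and 382 CPM there, and muscle-like cells had 217 and 335 CPM. After each cell was thinned to 1000 UMIs, 39.7% of glaucoma pericyte-like cells and 37.7% of normal ones had an ABCC9 UMI, against 0.324% and 0.926% of T or NK cell-like cells, which should lack it. Unthinned, the pericyte-like shares were 48.1% and 61.4%, at median depths of 1434.5 and 2288 UMIs, and the T or NK cell-like medians were 1355 and 1728 UMIs. KCNMB4, a beta subunit of the BK channel found in nerve, had 447 and 469 CPM in non-myelinating Schwann cell-like cells. KCNJ2, an inward rectifier, was highest in vascular endothelium-like cells (72.1 and 109 CPM), and KCNJ16 in muscle-like cells (2.86 and 18.0 CPM). The BK pore KCNMA1 and the subunit KCNAB1 had no shared highest class, and KCNMB1 reached only 2.23 and 3.26 CPM in muscle-like cells.

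The muscle-like class held 2 large clusters with different calcium genes. One was led by MYH11, CHRM3 and ATP2A1 (244 glaucoma cells and 620 normal cells), the other by RERGL, ACTG2, STIMATE and PLN (361 and 401 cells). Of 12 members measured in both libraries, 4 were higher in the CHRM3 cluster in both and 3 lower. Among 3163 genes, 9.42% were higher and 10.1% lower in both. Measured means at least 100 UMIs over the 2 clusters. At the lower of their 2 levels in glaucoma, KCNJ8, STIM1, ORAI1 and SLC8A1 would have missed that minimum. Each was counted there only through the cluster where it was high, so their calls are no support for the counts. STIMATE and PLN were not used to form the clusters.

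In glaucoma, ITPR1 had 420 CPM in the CHRM3 cluster and 56.4 CPM in the RERGL cluster, and in normal 697 and 123 CPM, log2 ratios of 2.90 and 2.50. After thinning, an ITPR1 UMI was found in 34.5% of glaucoma and 52.5% of normal cells of the CHRM3 cluster, against 3.98% and 12.9% of the RERGL cluster. In T or NK cell-like cells, which should have little, 0.647% and 0.926% had one. Unthinned shares were 84.0% and 88.2% in the CHRM3 cluster (median depths of 6335.5 and 5864.5 UMIs) and 13% and 28.2% in the RERGL cluster (2470 and 2998 UMIs). KCNJ8 had 320 against 39.7 CPM in glaucoma and 435 against 46.0 CPM in normal. STIM1 (log2 1.51 and 1.49) and ORAI1 (1.86 and 2.50), sensor and pore of store-operated entry, were higher in the same cluster. In the opposite direction, PLN had 744 against 1911 CPM in glaucoma and 333 against 1776 CPM in normal. STIMATE, the other store-operated member, was also lower there, at 1916 against 6218 CPM in glaucoma and 1046 against 5026 CPM in normal. SLC8A1 had 2 UMIs in the CHRM3 cluster in each library, against 100 and 183 UMIs in the RERGL cluster; the log2 ratios were -6.31 [-9.37, -4.42] in glaucoma and -8.13 [-11.18, -6.25] in normal. The companion gene ATP2A1, the SERCA1 pump of fast skeletal muscle, had 2654 and 2859 CPM in the CHRM3 cluster against 36.6 and 33.9 CPM in the RERGL cluster, a description only, since it was open to the clustering.

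Pericyte-like cells differed from both. Against the RERGL cluster 2 of 9 members measured in both libraries were higher in both and 4 lower, and against the CHRM3 cluster 1 of 12 was higher and 6 were lower. ABCC9 was higher in them than in the RERGL cluster (log2 4.27 in glaucoma and 4.52 in normal) and than in the CHRM3 cluster (3.75 and 3.69). Of all genes, 6.06% were higher and 4.86% lower than in the RERGL cluster in both libraries, and 15% and 12.2% than in the CHRM3 cluster. KCNJ8 was near the CHRM3 level (log2 0.34 and -0.19). The CHRM3 cluster thus carried 8.51 and 9.52 KCNJ8 UMIs for each ABCC9 UMI, against 0.803 and 0.645 in pericyte-like cells.

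**Figure D2:**
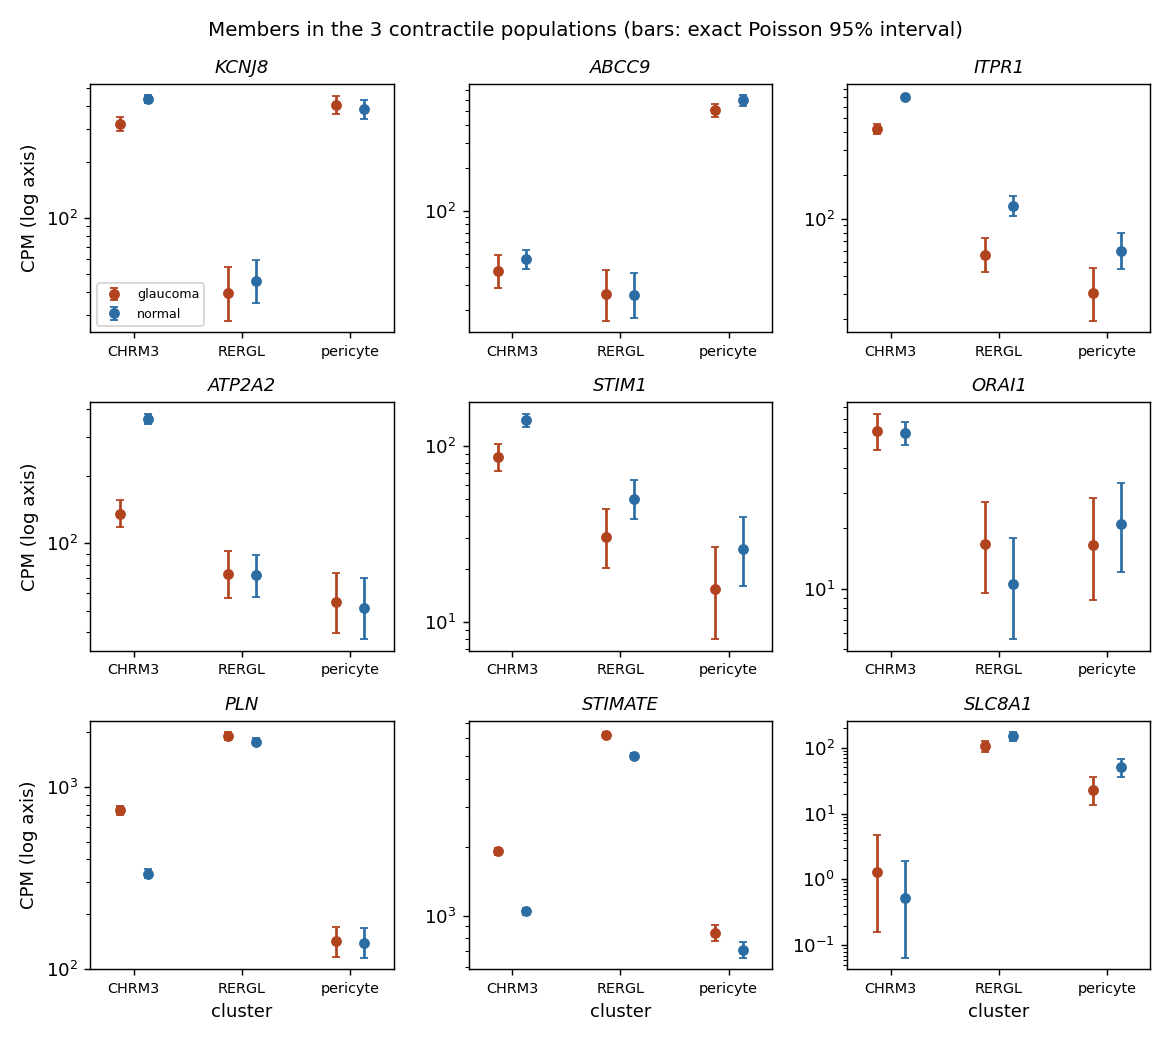
Level (CPM, log axis) of 9 genes in the CHRM3 muscle-like cluster, the RERGL muscle-like cluster and pericyte-like cells; points are libraries, glaucoma left of normal, bars the exact Poisson 95% interval. ITPR1, STIM1 and ORAI1 were highest in the CHRM3 cluster, PLN, STIMATE and SLC8A1 in the RERGL cluster and ABCC9 in pericyte-like cells.

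Between libraries, a gene was called higher or lower in a class when it had at least 100 UMIs there, at least a 2-fold ratio, and an exact 95% interval that left out equality. Over the 9 classes 97 member and class pairs could be measured, of which 7 were higher in glaucoma and 9 lower. Some of the called pairs, named below, passed the minimum only through the library where they were high. The 97 pairs covered 24 members. The other 10 (CACNA1C, CACNA1D, CACNA1H, ITPR3, RYR1, RYR3, TRPV4, PIEZO1, KCNMA1 and KCNMB1) were under 100 UMIs in every class, so under this rule no call was made for them. Counts with no UMI minimum are in the closing section.

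In trabecular meshwork-like cells 2 of 22 measured members were higher and 2 lower, against 5.56% of all genes higher and 5.31% lower. Their median log2 ratio was -0.12, against -0.003 for all genes. KCNJ2 had 3.53 CPM in glaucoma cells and 26.2 CPM in normal cells, a log2 ratio of -2.89 [-3.38, -2.43]. RYR2 had 5.83 and 18.6 CPM, a log2 ratio of -1.67 [-2.09, -1.26]. Both were lower in glaucoma in each of the 4 meshwork clusters with at least 50 cells in each library, but not always beyond counting error. In cluster 7 KCNJ2 had 0 UMIs in glaucoma and 2 in normal, and RYR2 had 20 and 4. In cluster 16 the RYR2 intervals overlapped, at 18.5 [9.57, 32.3] CPM in glaucoma and 29.2 [19.1, 42.8] CPM in normal. Over the whole class KCNJ8 had 99.8 CPM in glaucoma cells and 35.9 CPM in normal cells (log2 1.48 [1.28, 1.68]), and KCNAB1 had 12.0 and 3.0 CPM (log2 2.0 [1.34, 2.73]). At the lower of their 2 levels, KCNJ2 and KCNAB1 would have missed the 100 UMI minimum in this class. Each was counted only through the library where it was high, so their calls are no support for the counts.

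The meshwork clusters made up different shares of the class in the 2 libraries. Cluster 9 was 6.15% of glaucoma meshwork-like cells and 51.5% of normal ones, and cluster 11 was 18.7% and 1.14%. KCNJ8 had 17.5 and 16.5 CPM in cluster 9, but 199 and 503 CPM in cluster 11, where normal had 11 cells. With the same cluster weights in both libraries the log2 ratios of KCNJ8 and KCNAB1 turned to -0.25 and -0.42, so neither was called. That setting also moved KCNJ2 to -2.10, still called. ITPR1, at -0.27 as reported, became -1.19 and was called lower, and STIMATE, at 0.93 as reported, became 1.26 and was called higher. These 2 values rest in part on few counts. The 11 normal cells of cluster 11 had 3 ITPR1 UMIs and 1 STIMATE UMI, and the 38 glaucoma cells of cluster 17 had 0 ITPR1 UMIs. The KCNJ8 value of -0.25 also rests in part on those 11 normal cells, which had 42 KCNJ8 UMIs. The set of called meshwork members thus depends on the cluster weights, with KCNJ2 and RYR2 called either way. Of the 4 clusters with at least 50 cells in each library, KCNJ8 was above its normal level in 4 and KCNAB1 in 1.

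**Figure D3:**
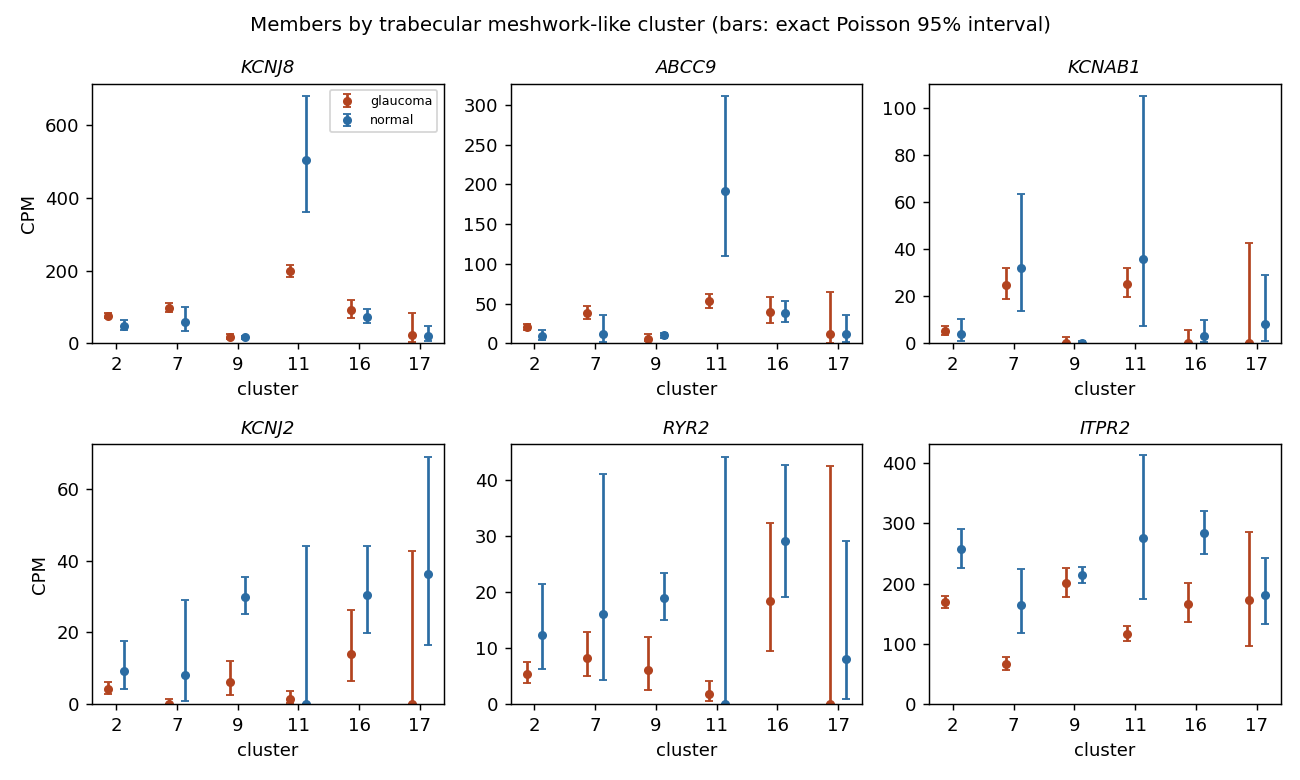
Level (CPM) of 6 genes in the 6 trabecular meshwork-like clusters, glaucoma left of normal, with exact Poisson 95% intervals. KCNJ2 and RYR2 lay lower in glaucoma in clusters 2, 7, 9 and 16, while KCNJ8 was highest in cluster 11 in both libraries. Intervals of the libraries overlapped for KCNJ2 and RYR2 in cluster 7 and for RYR2 in cluster 16, among others not listed.

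In muscle-like cells 3 of 21 measured members were lower in glaucoma and 0 higher, against 3.73% of all genes lower and 3.22% higher. The median log2 ratio of all genes was -0.12 in this class, and that of the members -0.19. ATP2A2 had 106 CPM in glaucoma cells and 282 CPM in normal cells, a log2 ratio of -1.41 [-1.59, -1.24]. ITPR1 had 263 and 542 CPM, a log2 ratio of -1.04 [-1.16, -0.93] that fell within 2-fold, at -0.73, with the same cluster weights in both libraries. KCNJ16 had 9 UMIs in glaucoma and 94 in normal. It passed the 100 UMI minimum only through the normal library, so it had to differ, and its call is no support for the count. Of the 3 calls, only that of ATP2A2 was made under all 12 alternatives. PLN went the other way, at log2 0.69 [0.62, 0.76], within 2-fold.

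ATP2A2 was called in the CHRM3 cluster, where it had 136 CPM in glaucoma and 360 CPM in normal, while the RERGL cluster had 73.1 and 71.8 CPM; the difference between the clusters was not tested. In the CHRM3 cluster PLN was called higher, at 744 CPM in glaucoma and 333 CPM in normal (log2 1.16 [1.04, 1.28]), so there were 5.48 PLN UMIs for each ATP2A2 UMI in glaucoma and 0.924 in normal. In the RERGL cluster that ratio was 26.1 and 24.7. In the CHRM3 cluster 1.92% of all genes were higher and 4.58% lower, and in the RERGL cluster 4.96% were lower. The median mitochondrial share of CHRM3 cluster cells was 17.1% in glaucoma and 11.4% in normal, and its part in these values was not tested beyond bands of that share. For PLN the log2 ratio differed between the bands. It was 0.39 [-0.28, 1.0] in cells under 10% (15 glaucoma and 248 normal cells), 0.71 [0.45, 0.96] at 10 to 15% (50 and 215 cells) and 1.74 [1.54, 1.94] at 15 to 20% (179 and 157 cells), so it passed 2-fold in the highest band alone. For ATP2A2 the ratios in the same bands were -1.37 [-2.82, -0.24], -0.996 [-1.43, -0.59] and -1.60 [-1.88, -1.32]. ITPR1, by contrast, was called lower in the RERGL cluster (56.4 and 123 CPM) and had a log2 ratio of -0.73 in the CHRM3 cluster.

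**Figure D4:**
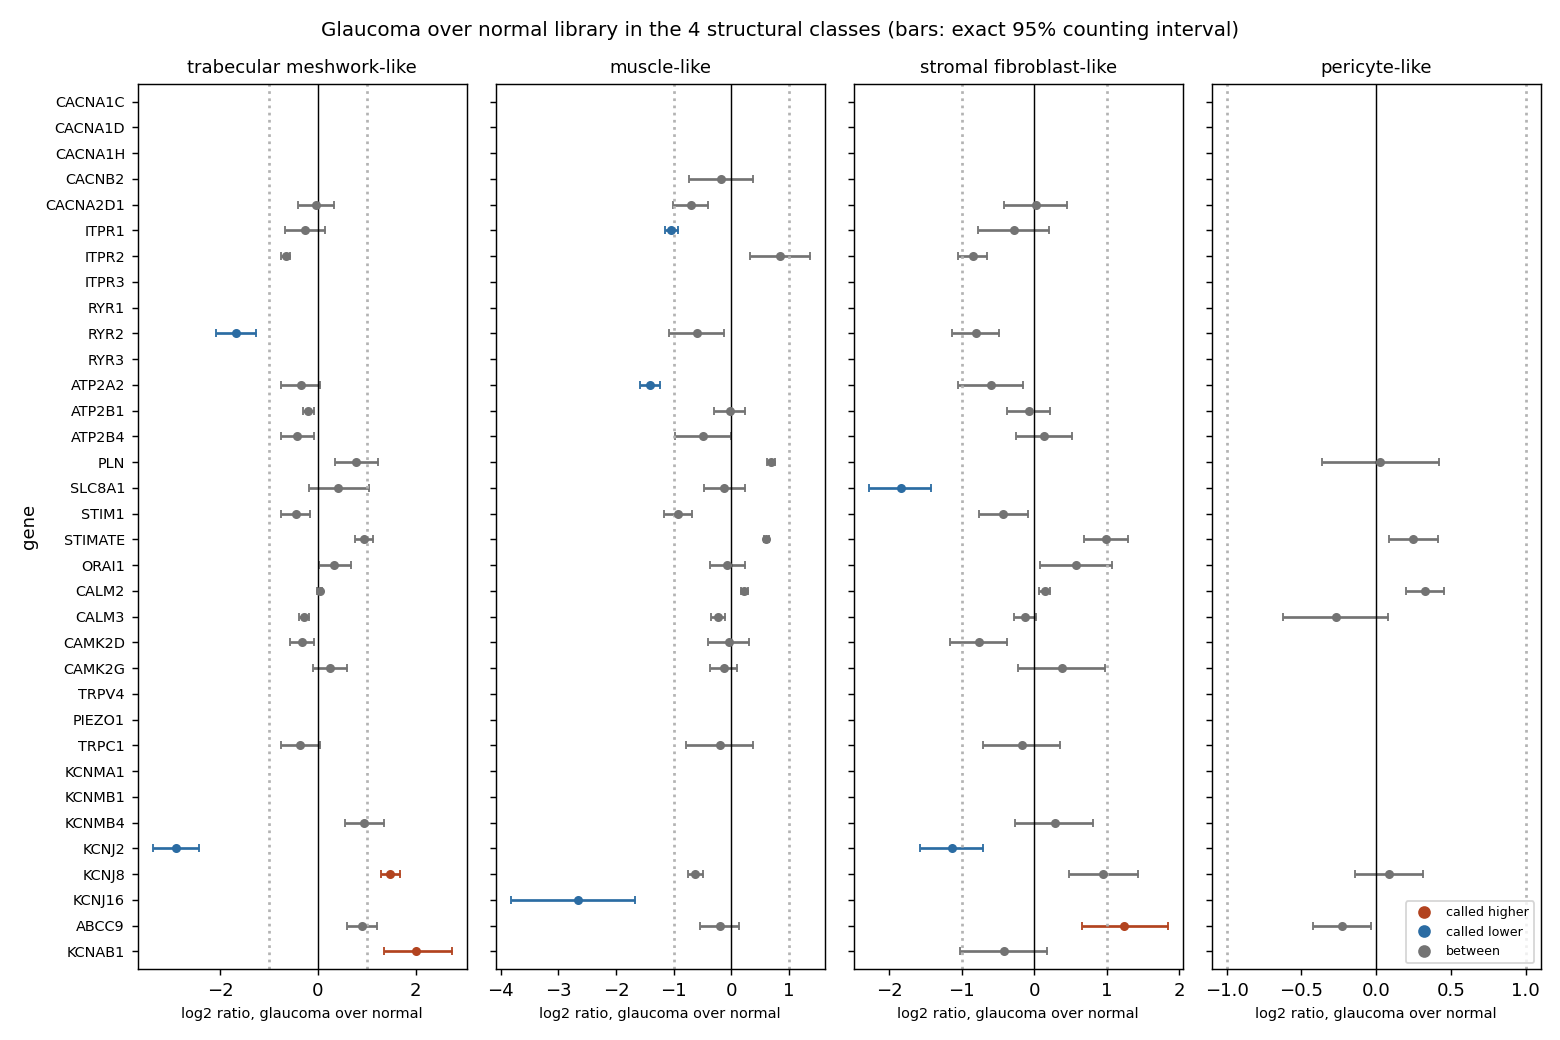
Log2 ratio of glaucoma over normal for each gene with at least 100 UMIs in 4 classes; bars are exact 95% counting intervals and dotted lines mark 2-fold. KCNJ2 and RYR2 in trabecular meshwork-like cells and ATP2A2 in muscle-like cells lay below the lower line with their whole interval.

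In stromal fibroblast-like cells 1 of 21 members was higher and 2 lower, against 1.71% of all genes higher and 5.42% lower. SLC8A1 had 17.9 CPM in glaucoma and 64.1 CPM in normal, a log2 ratio of -1.84 [-2.28, -1.43]. It moved to -2.71 when the libraries were clustered separately. KCNJ2 had 18.5 and 40.6 CPM, but its log2 ratio was 0.23 when the libraries were clustered separately and -0.59 with the same cluster weights. ABCC9 had 19.5 CPM in glaucoma and 8.27 CPM in normal, and was called under 6 of 11 alternatives. Its log2 ratio of 1.24 became 0.84 with a stricter cell filter and 0.80 with the members among the variable genes. At its normal level ABCC9 would have missed the UMI minimum in this class. It was counted only through the glaucoma library, so its call is no support for the count. In pericyte-like cells 0 of 6 measured members were called, against 7.46% of all genes, and ABCC9 had a log2 ratio of -0.23 [-0.42, -0.03].

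Macrophage-like cells had 2 of 7 members lower and 1 higher (5.55% of all genes lower and 3.36% higher): ITPR2 had 51.5 CPM in glaucoma and 135 CPM in normal, and ATP2B1 114 and 244 CPM. STIMATE was the member called higher there and in vascular endothelium-like cells (1 of 7, against 1.68% of all genes higher), T or NK cell-like cells (1 of 4, against 7.1%) and non-myelinating Schwann cell-like cells (1 of 7, against 2.92%). At its normal level STIMATE would have missed the 100 UMI minimum in each of these classes. It had 105 UMIs in glaucoma and 5 in normal in T or NK cell-like cells, and 132 and 23 in non-myelinating Schwann cell-like cells. Counted only through the glaucoma library, its calls are no support for the counts. In the Schwann cell-like class the STIMATE log2 ratio of 2.36 became 0.34, under 100 UMIs, with the stricter cell filter. In T or NK cell-like cells it had 200 CPM in glaucoma, 21.9% of it from 1 barcode, and 23.7 CPM in normal. Markers of other cell types moved with it in those cells. The summed level of 11 muscle markers was 1505 CPM in glaucoma and 426 CPM in normal, with 0 and 3 of them at 0. That of 14 meshwork markers was 2031 and 237 CPM, with 2 and 11 at 0, and that of 10 pericyte markers 215 and 18.9 CPM, with 2 and 6 at 0. Across classes the muscle markers did not move as one. DES was higher in glaucoma in all 9 classes, by log2 0.44 to 2.31, while MYH11 was lower in 5 of them, such as trabecular meshwork-like cells with 98.2 and 111 CPM. The muscle sum in trabecular meshwork-like cells was 887 CPM in glaucoma and 1189 CPM in normal. The part of RNA from other cells in the STIMATE values outside muscle was not tested. In myelinating Schwann cell-like cells 0 of 2 members were called, against 6.62% of all genes.

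Some genes differed little but in one direction. CALM2 had a log2 ratio above 0 in 9 of 9 classes, from 0.03 to 0.55, all within 2-fold. STIM1 and CAMK2D were each below 0 in the 4 classes where they could be measured, also within 2-fold. For STIM1 the log2 ratio was -0.92 in muscle-like cells and -0.46 in trabecular meshwork-like cells.

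Of 87 other genes of the same pathways listed for comparison, 80 had a feature and 41 could be measured in at least 1 class. In trabecular meshwork-like cells 2 of 29 were higher in glaucoma and 3 lower, namely CACNA2D3 (log2 1.78), a calcium channel subunit, FKBP1B (1.11), a stabiliser of ryanodine receptors, TRPM3 (-2.14), a cation channel, CAMK2B (-1.73) and ASPH (-1.15). In muscle-like cells 2 of 30 were higher and 6 lower. STIM2, a further sensor of reticulum calcium, had 198 CPM in glaucoma and 644 CPM in normal (log2 -1.70). The next largest were TRDN (1.28), a reticulum protein of striated muscle, the potassium channels KCNA2 (-1.27) and KCNQ5 (-1.07), and the calcium channel CACNA1A (1.12).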

How the data were processed

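Droplet 3′ libraries were counted with Cell Ranger 4.0 and analysed with Seurat 3.0, per the submitters' processing notes, while the file headers name Cell Ranger 6.0.0; the genome build is not given in the sources used here. The deposited values are raw UMI counts per feature and barcode. From these, cells with at least 500 genes and under 20% mitochondrial UMIs were kept and Scrublet doublets removed (3.43% of glaucoma and 0.829% of normal cells). Both libraries were clustered together with scanpy 1.11.5: scaling to 10000, 2000 variable genes without the members (7 had been among them), 30 components, 15 neighbours and Leiden at resolution 1. Clusters were named from 18 marker sets. Counts were summed by class and library. Levels have exact Poisson intervals and ratios exact conditional binomial intervals at 95%, and the procedure was tested on simulated data.

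The members, gene lists and rules were chosen with earlier results of these data known. Of the other genes of the pathways, the 5 with the largest log2 ratio among those called were to be named; ATP2A1 and the genes given with mitochondrial bands were named after their values were seen. To find members that moved in opposite directions in different classes, 2 criteria were tried. The first, a call in each direction, found 0 members; the second, intervals on opposite sides of 0 with a log2 gap of at least 1, was chosen after that was seen and found 4. No sequence is shown. Alternatives are named in the closing section.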

Additional observations from a re-analysis of the deposited data

Results flagged for a closer look

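The first criterion tried, a member called higher in 1 class and lower in another, found 0 members. A looser criterion was then chosen with the values in view: intervals on opposite sides of 0 in 2 classes, with a log2 gap of at least 1. It found 4 members, so these are a selection made after the fact, and with 1 library per group the difference between classes was not tested. ITPR2 had a log2 ratio of glaucoma over normal of 0.84 in muscle-like cells and -1.39 in macrophage-like cells. ATP2B1 had 0.47 in vascular endothelium-like cells and -1.09 in macrophage-like cells. KCNJ8 had 1.48 in trabecular meshwork-like cells and -0.63 in muscle-like cells, but the meshwork value turned to -0.25 with the same cluster weights in both libraries. That value of -0.25 rests in part on the 11 normal cells of cluster 11. ABCC9 had 1.24 in stromal fibroblast-like cells and -0.23 in pericyte-like cells. The fibroblast value was within 2-fold with a stricter cell filter (0.84) and with the members among the variable genes (0.80). At its normal level ABCC9 would have missed the UMI minimum in fibroblast-like cells, so it was counted there only through the glaucoma library.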

How the results depend on the processing

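No paired analysis was possible because each group has 1 library, and no library could be left out for the same reason. The 16 called pairs gave 177 values under the alternatives; 174 kept their sign, 149 were still called, and 3 pairs (ATP2A2 in muscle-like, SLC8A1 in fibroblast-like and ATP2B1 in macrophage-like cells) were called under every alternative. The sign reversed for KCNJ8 (-0.25) and KCNAB1 (-0.42) in trabecular meshwork-like cells with the same cluster weights, and for KCNJ2 in stromal fibroblast-like cells with libraries clustered separately (0.23). The KCNJ8 reversal rests in part on the 11 normal cells of cluster 11. ITPR1 in muscle-like cells was no longer called with the same cluster weights (-0.73) or scaling by the median ratio (-0.92), nor under 3 settings added after seeing the data: no mitochondrial limit (-0.71), mitochondrial UMIs left out (-0.997) and no cluster 19 (-0.99). With no UMI minimum, 7 meshwork members were called where 4 were reported, 5 muscle members where 3 were, 2 pericyte members where 0 were, and 19 member and class pairs over the remaining classes where 6 were. With cells thinned to 1000 UMIs, they were 2 in trabecular meshwork-like cells and 1 in the other classes, where fewer genes reach the minimum. With libraries clustered separately, stromal fibroblast-like cells had 8 (3 as reported); the cause was not tested. Depth left 10 members unmeasured between libraries.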

Other observations

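Lymphatic-type endothelial cells (550 glaucoma cells and 33 normal cells, too few in normal to compare) had 260 PLN UMIs and 112 STIMATE UMIs in glaucoma, a ratio of 2.32, and 6 and 2 in normal. In muscle-like cells the ratio of PLN to STIMATE UMIs was 0.368 in glaucoma and 0.347 in normal, and in T or NK cell-like cells of the glaucoma library it was 0.267. These pairs were chosen after their values were seen and are given as values only.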
